A study of Mus musculus with 22 samples.

Results

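The genes described here are the 8 members of Hox paralog groups 10 to 12 that were looked up by symbol: Hoxa10, Hoxc10 and Hoxd10 of group 10, Hoxa11, Hoxc11 and Hoxd11 of group 11, and Hoxc12 and Hoxd12 of group 12. All 8 were found among the 55141 genes of the deposited tables, which hold 39 Hox genes in all. The study sequenced RNA of mouse embryonic stem (mES) cells and of their derivatives, in 22 libraries that fall into 10 groups. Wild-type (wt) and Hox-/- mES cells, the latter titled BADC, were grown with LIF, the GSK-3 blocker CHIR99021 at 3 µM and a blocker of MEK at 1 µM, and gave 2 libraries per genotype. Adherent endoderm cultures of both genotypes, with 3 libraries each, received 100 ng/ml Activin A and 3 µM CHIR99021 at 24 h and again at 72 h and were collected at 120 h. Gastruloids, stem cell aggregates that mimic stages of the young embryo, were made with Activin A from both genotypes and with Chiron from wild type alone, and 2 libraries per group were taken at each of 96 h and 120 h. Gastruloid doses are not in the labels, which call the endoderm and gastruloid samples mixed cells and leave unsaid how many clones the Hox-/- samples represent, so genotype and clone cannot be told apart. They also do not say whether replicates were separate cultures, so p-values measure only the spread between these libraries, which may be technical.

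Hox genes encode homeodomain transcription factors that lie in clusters and are switched on in order along each cluster, so that genes near the 5′ end act later and further back in the body. Group 10 genes are known for suppressing ribs in the lumbar region, and group 11 genes for patterning the sacral vertebrae, the forearm and lower leg, and for inducing the kidney. Group 12 genes lie between group 11 and group 13, whose members are linked to the end of axis growth.

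In the mm10 coordinates of the deposited tables, Hoxa10 (ENSMUSG00000000938) lay at chr6:52231197-52240854 and Hoxa11 (ENSMUSG00000038210) at chr6:52242106-52245810, both on the minus strand. Hoxc12 (ENSMUSG00000050328) lay at chr15:102936757-102938609, Hoxc11 (ENSMUSG00000001656) at chr15:102954427-102957708 and Hoxc10 (ENSMUSG00000022484) at chr15:102966796-102971893, on the plus strand. Hoxd12 (ENSMUSG00000001823) lay at chr2:74675013-74677705, Hoxd11 (ENSMUSG00000042499) at chr2:74682323-74684168 and Hoxd10 (ENSMUSG00000050368) at chr2:74691924-74695105, also on the plus strand. All 8 are annotated as protein coding.

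RefSeq promoter sequence (GRCm38.p6) was matched for 5 of the 8 genes, with 7 start sites. The 250 bases before 3 of these starts are shown because the genes behaved differently: Hoxa10 was lower with Activin A than with Chiron at 120 h, Hoxd11 was higher, and Hoxd12 had counts above the floor in endoderm cultures alone. The windows are chr6:52234940-52235189 on the minus strand, before the downstream start of Hoxa10, chr2:74682073-74682322 on the plus strand, before the downstream start of Hoxd11, and chr2:74674763-74675012 on the plus strand, before Hoxd12. None of the 3 overlaps an annotated exon. Capitals mark TTTAT, the core of sites bound by Cdx and posterior Hox proteins, searched on both strands.
Hoxa10: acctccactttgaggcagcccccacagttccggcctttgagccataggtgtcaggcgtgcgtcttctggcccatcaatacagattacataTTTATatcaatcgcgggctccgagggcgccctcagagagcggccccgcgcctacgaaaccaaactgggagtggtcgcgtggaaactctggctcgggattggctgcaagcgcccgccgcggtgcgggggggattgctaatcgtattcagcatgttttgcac
Hoxd11: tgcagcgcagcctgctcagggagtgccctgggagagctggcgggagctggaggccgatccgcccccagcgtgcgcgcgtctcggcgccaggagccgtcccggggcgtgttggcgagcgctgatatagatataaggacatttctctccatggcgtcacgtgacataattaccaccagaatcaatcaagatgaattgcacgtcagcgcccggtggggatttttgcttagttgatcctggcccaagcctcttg
Hoxd12: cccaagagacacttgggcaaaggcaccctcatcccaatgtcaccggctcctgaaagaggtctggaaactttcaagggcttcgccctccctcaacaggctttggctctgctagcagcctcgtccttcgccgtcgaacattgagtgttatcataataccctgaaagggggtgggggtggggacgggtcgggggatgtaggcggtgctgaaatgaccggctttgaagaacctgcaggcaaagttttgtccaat
Of the printed windows that of Hoxa10 held 1 TTTAT and the other 2 held 0. The choice of start turns this round: the window before the upstream start of Hoxd11 (chr2:74679308-74679557) held 2, and that before the upstream start of Hoxa10 (chr6:52240855-52241104) held 1. At least 1 TTTAT was in 37.3% of 32851 promoter windows of the same length. The palindrome GTCTAGAC, a Smad site, was in none of the 7 windows and in 0.167% of all windows. The printed windows of Hoxa10 and Hoxd11 each held 20 CpG dinucleotides and that of Hoxd12 held 10, while the upstream windows of Hoxa10 and Hoxd11 held 7 and 2, against a median of 6 and an upper quartile of 16 over all windows. These matches describe letters in the windows and show no binding.

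The members were all but absent from the Hox-/- libraries. Over the 9 Hox-/- libraries they summed to 2 counts, 1 of Hoxc10 in endoderm replicate 3 and 1 of Hoxd10 in Activin A gastruloids at 120 h, replicate 2. In the 13 wild-type libraries they summed to 12511 counts. Where no library of a group exceeded 3 counts the group is called at the floor, and folds against such a group are lower bounds, taken at 3 counts per library. These bounds divide the mean of the higher group by that floor and allow for no error in that mean. Total counts per library ran from 9.11 to 28.8 M, so 3 counts correspond to 0.104 to 0.329 CPM (counts scaled to 1 M per library). Floors cover counting error only, while the intervals of fold changes rest on the spread between libraries as edgeR estimates it. Each standard error (SE) of a fold change was worked back from that fold change and the statistic of edgeR's test. It was not estimated separately, and the intervals are built on it. Low counts with the Hox-/- genotype were not particular to the members. Among all 39 Hox genes, the number at the floor was 34 for Hox-/- endoderm (wild type: 0) and 37 for Hox-/- stem cells (wild type: 22). For Hox-/- Activin A gastruloids this number was 28 at 96 h (wild type: 9) and 27 at 120 h (wild type: 4). Of the 4 group 13 genes, 2 were at the floor in Activin A gastruloids of each genotype at both times. The group's sum in Hox-/- was 41.0 ± 0.313 CPM (SD, n = 2) at 96 h and 24.8 ± 0.728 CPM at 120 h. In wild type it was lower, 0.975 and 0.981 CPM. Most of the Hox-/- sum was Hoxa13, with 39.6 and 21.1 CPM.

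**Figure D1:**
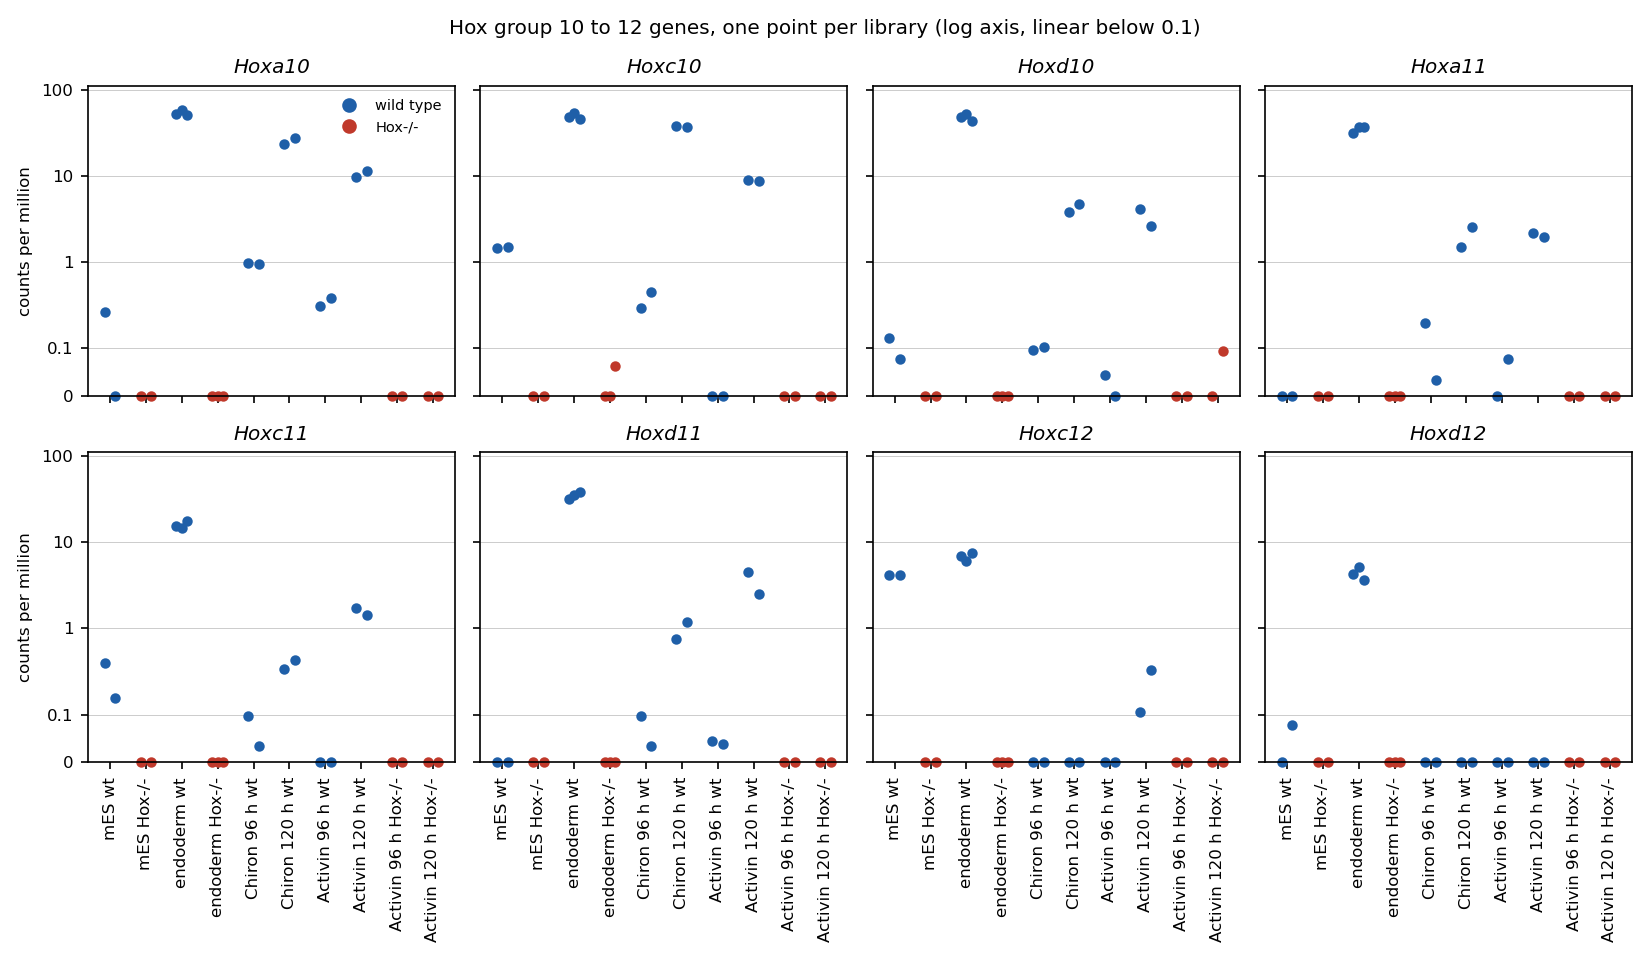
CPM of each member in every library, on an axis that is logarithmic above 0.1 and linear below; blue points are wild-type and red points Hox-/- libraries. All Hox-/- points lie at or below 0.0935 CPM, and the wild-type endoderm points are the highest for all 8 genes.

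In endoderm cultures all 8 members were lower in Hox-/- than in wild type by edgeR's quasi-likelihood test, where 23.1% of 14975 genes tested were called lower at an adjusted p under 0.05. Hoxa10 had 636, 876 and 691 counts in the 3 wild-type libraries and 0 in each Hox-/- library, at least 294-fold lower. Hoxc10 (598, 812 and 617 counts) and Hoxd10 (593, 785 and 589 counts) were at least 270-fold and 263-fold lower. Every wild-type library lay above every Hox-/- library for each of the 8 genes, but the share of all genes without overlap was not computed. Hoxa11 was at least 193-fold lower, Hoxd11 191-fold and Hoxc11 86.8-fold. The group 12 genes had the smallest bounds, at least 37.5-fold for Hoxc12 and 23.8-fold for Hoxd12, and also the lowest wild-type counts. A member at the floor in 1 group passes the filter on low counts only through the other group and had to differ, so its call is no support. Calls are also taken as no support in every genotype, time, treatment and culture comparison below in which a fold is given as at least a value.

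In mES cells only Hoxc10 and Hoxc12 had enough counts to be tested, and both were lower in Hox-/-, against 10.8% of 13631 genes. Hoxc12 had 62 and 54 counts in wild type and 0 in both Hox-/- libraries, at least 17.5-fold lower (edgeR adjusted p 2.73e-11). Hoxc10 had 22 and 19 counts against 0 and 0, at least 6.17-fold lower (edgeR adjusted p 1.56e-06). On log2(FPKM + 1) values with limma neither was called. The other 6 members had at most 6 counts in any mES library.

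Activin A gastruloids had few member counts at 96 h and more at 120 h. At 96 h Hoxa10, with 7 and 10 wild-type counts and none in Hox-/-, was the 1 member of 6 tested that was called lower, at least 2.05-fold (edgeR adjusted p 0.000614), against 16.7% of 16831 genes called lower. It was not called with limma on log2(FPKM + 1) (adjusted p 0.247). The other 7 members were at the floor in both genotypes at 96 h. Those tested passed the filter only through the wild-type 120 h libraries, so 1 of 6 is no share to set beside that of all genes. At 120 h all 6 members tested were lower in Hox-/-, against 25.5% of genes: Hoxa10 at least 39.2-fold, Hoxc10 32.5-fold, Hoxd11 13.1-fold, Hoxd10 12.5-fold, Hoxa11 7.68-fold and Hoxc11 5.86-fold. Hoxc12 had 1 and 3 counts in wild type at 120 h and Hoxd12 had 0 in every gastruloid library, so neither was tested. The genotype comparisons at 96 h and 120 h use different libraries, but the time and treatment comparisons below share the wild-type Activin A libraries with them.

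Among wild-type cultures the members were highest in endoderm. Their summed level there was 246.4 ± 12.7 CPM (SD, n = 3), against 70.3 ± 4.21 CPM in Chiron gastruloids and 30.1 ± 1.59 CPM in Activin A gastruloids at 120 h (n = 2 each). At 96 h the sums were 1.67 ± 0.110 and 0.452 ± 0.0734 CPM, and in mES cells 6.18 ± 0.275 CPM. The 3 endoderm libraries (237.3 to 261.0 CPM) did not overlap the 4 gastruloid libraries at 120 h (28.99 to 73.3 CPM), and the two-sided exact permutation test gave p = 0.0571, the smallest that 3 against 4 libraries allow. The endoderm and gastruloid values come from separate tables and the cultures differ in format, so culture and table cannot be told apart. In these bulk samples, fewer cells that express a gene and less RNA per cell cannot be told apart either.

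The share of all Hox counts taken by the members followed another order. It was 28.7% ± 1.04 in wild-type endoderm and 18.8% ± 1.31 in wild-type mES cells, against 3.33% ± 0.0212 in Chiron and 2.55% ± 0.0994 in Activin A gastruloids at 120 h. The shares were 0.0864% and 0.0706% at 96 h. In gastruloids at 120 h the group 9 genes, which lie next to group 10, took 22.1% with Chiron and 16.8% with Activin A. The mES sum was small in absolute terms, with 929 Hox counts in both libraries together.

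**Figure D2:**
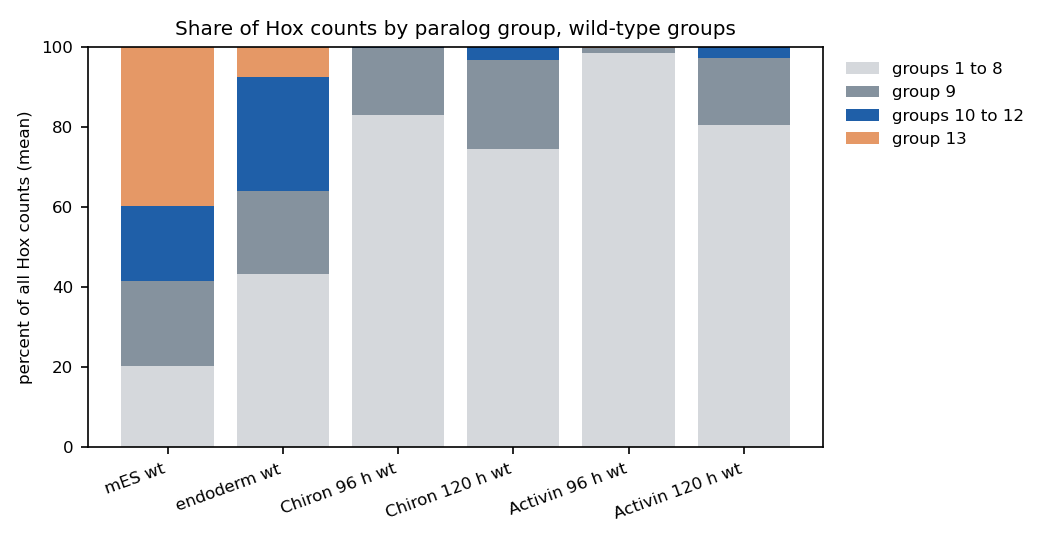
Mean share of all Hox counts taken by paralog groups 1 to 8, 9, 10 to 12 and 13 in the 6 wild-type groups, as stacked bars in percent. Groups 10 to 12 take 28.7% in endoderm and 18.8% in mES cells, and at most 3.33% in any gastruloid group.

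Levels per transcript length, as FPKM, fell from group 10 to group 12 in wild-type endoderm. Hoxa10, linked to uterine and lumbar patterning, had 28.3, 32.1 and 28.7 FPKM. Hoxc10 had 24.9, 27.6 and 23.2 FPKM, and Hoxd10, which acts in lumbar motor neurons, had 23.1, 25.1 and 21.0 FPKM. The Hoxa10 libraries lay above those of both other group 10 genes, and Hoxc10 and Hoxd10 overlapped. Hoxa11, needed with Hoxd11 for the forearm and kidney, had 14.8, 19.6 and 17.4 FPKM. Hoxd11 had 11.2, 15.04 and 18.5 FPKM and overlapped Hoxa11, and both lay below all group 10 libraries. Hoxc11 had 6.82, 6.77 and 8.47 FPKM, below both of its paralogs. Hoxc12 had 4.48, 3.32 and 5.07 FPKM and Hoxd12 1.61, 2.01 and 1.49 FPKM, and neither overlapped its neighbours in this order.

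The same order by paralog group held less evenly in gastruloids at 120 h. With Chiron, Hoxc10 led at 18.7 and 18.4 FPKM, Hoxa10 followed at 10.5 and 12.96 FPKM, and Hoxd10 had 1.91 and 2.40 FPKM. With Activin A, Hoxa10 led at 4.66 and 5.66 FPKM, Hoxc10 had 4.36 and 4.24 FPKM, and Hoxd11 (2.19 and 1.499 FPKM) and Hoxd10 (1.97 and 1.19 FPKM) overlapped. Within the Hoxd cluster the ratio of Hoxd11 to Hoxd10 in FPKM was 0.655 ± 0.204 in endoderm (n = 3), 0.226 ± 0.0290 with Chiron and 1.19 ± 0.104 with Activin A (n = 2 each), so the libraries of the 3 cultures did not overlap. Within the Hoxc cluster the ratio of Hoxc11 to Hoxc10 was 0.295 ± 0.0631, 0.00749 ± 0.00462 and 0.180 ± 0.0529 in the same order. For Hoxa11 to Hoxa10 it was 0.580 ± 0.0503, 0.0743 ± 0.0184 and 0.159 ± 0.0361. These are descriptions with no test, and the Chiron ratios rest on as few as 4 counts of Hoxc11 per library. Those 4 counts stood beside 0.0789 FPKM in replicate 1 and 0.198 FPKM in replicate 2. The spread of the ratios thus also holds differences between FPKM and counts.

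**Figure D3:**
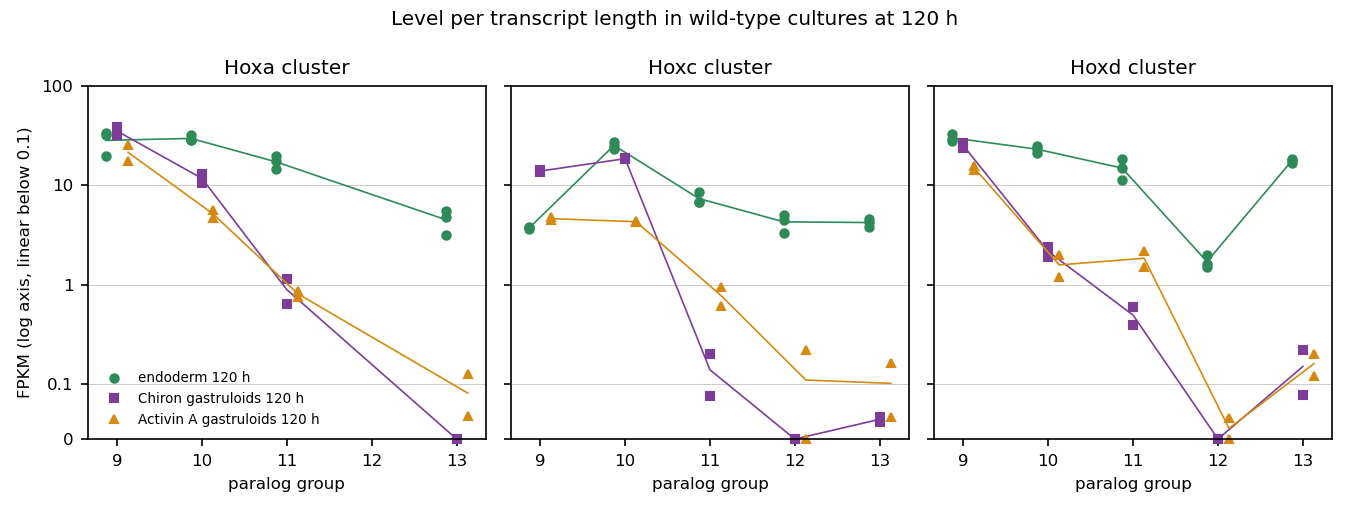
FPKM by paralog group along the Hoxa, Hoxc and Hoxd clusters in wild-type cultures at 120 h; each point is a library, lines join group means, and the axis is logarithmic above 0.1 and linear below. Endoderm lies above both gastruloid cultures from group 10 to group 12, and the Activin A points lie above the Chiron points for Hoxc11 and Hoxd11.

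The mES cells had a different pattern. Hoxc12 had 62 and 54 counts and took 67.4% of the members' counts there, and Hoxc10 took 23.8%. Both libraries showed this order. Hoxa11 and Hoxd11 had no counts, and Hoxa10 had 4 and 0. Against mES cells, all 8 members were higher in wild-type endoderm by edgeR, where 41.6% of 16251 genes were called higher, but 4 of them (Hoxd10, Hoxa11, Hoxd11 and Hoxd12) were at the floor in mES cells. The change of Hoxc12 was the smallest, a log2 fold change of 0.59 (SE 0.189, edgeR adjusted p 0.00893), from 4.16 ± 0.0570 CPM (n = 2) to 6.80 ± 0.691 CPM (n = 3). Its call was lost with DESeq2 (adjusted p 0.102) and without mES wild-type replicate 1 (edgeR adjusted p 0.0532). Hoxc10 rose by 4.94 (SE 0.160) on the log2 scale, and Hoxd10 was at least 220-fold, Hoxa11 162-fold, Hoxd11 160-fold and Hoxd12 19.96-fold higher. Hoxa10 rose by 8.34 (SE 0.262) and Hoxc11 by 5.62 (SE 0.288), from 8 counts or fewer in both mES libraries together. Without mES replicate 2 these values were 7.48 and 5.15. Without mES replicate 1 Hoxc11 rose by 6.48 and Hoxa10, with no mES counts left, by 12.6. These shifts are larger than the SEs of the 2 genes, which thus do not cover the uncertainty at such low counts.

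Between 96 h and 120 h, 6 members rose in wild-type gastruloids of both kinds. With Activin A the 6 tested were all called higher, against 37.2% of genes, though 5 of them, all but Hoxa10, were at the floor at 96 h, and with Chiron the same 6 were called higher, against 28.5%. Hoxa10 rose from 7 and 10 to 90 and 104 counts with Activin A, a log2 fold change of 4.80 (SE 0.277, edgeR adjusted p 1.52e-20). With Chiron it rose from 20 and 27 to 278 and 256 counts, 4.61 on the log2 scale (SE 0.175, edgeR adjusted p 1.90e-16). No library at 96 h overlapped one at 120 h. Hoxc10 went from 0 and 0 to 82 and 79 counts with Activin A, at least 70.3-fold higher, and rose by 6.47 (SE 0.183, edgeR adjusted p 3.79e-18) with Chiron, from 6 and 13 to 449 and 351 counts. With Activin A, Hoxd11 was at least 28.3-fold, Hoxd10 27.0-fold, Hoxa11 16.6-fold and Hoxc11 12.6-fold higher. With Chiron, Hoxd10 was at least 34.2-fold and Hoxd11 7.68-fold higher, and Hoxa11 rose by 4.09 (SE 0.569), with 5.49 without Chiron 96 h replicate 1 and 3.21 without Chiron 96 h replicate 2.

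Hoxc11 with Chiron had 2 and 1 counts at 96 h and 4 and 4 at 120 h, at least 3.04-fold higher (edgeR adjusted p 0.0193). That call was lost with DESeq2 (adjusted p 0.0966), with limma on log2(FPKM + 1) (adjusted p 0.395) and when either Chiron 120 h library (edgeR adjusted p 0.0714 and 0.105) or Chiron 96 h replicate 2 (0.158) was left out. In Hox-/- gastruloids all 8 members were at the floor at both times, and those tested passed the filter only through wild-type libraries. The comparison of times there could thus not call them and shows no lack of a time effect. Of 6 members edgeR called 0, with 0 at an unadjusted p under 0.05, while 72.4% of genes were called in either direction. DESeq2 and limma also called 0. The test of whether genotype changed the time effect could not be read for these genes, since Hox-/- held 0 counts at both times for 5 of the 6. By edgeR 0 of 6 were called and 0 had an unadjusted p under 0.05, against 38.9% of genes called in either direction. DESeq2 called 1 of 5 and limma 4 of 4 and 6 of 8, all lower, on log2(FPKM + 0.1) and log2(FPKM + 1).

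Compared with Chiron, Activin A gastruloids at 120 h held less Hoxc10 and Hoxa10 and more Hoxd11 and Hoxc11. At 120 h Hoxc10 had 82 and 79 counts with Activin A against 449 and 351 with Chiron, a log2 fold change of -2.14 (SE 0.129, edgeR adjusted p 5.76e-12). Hoxa10 had 90 and 104 against 278 and 256 counts, a log2 fold change of -1.30 (SE 0.139, edgeR adjusted p 6.01e-08). Hoxd11 moved the other way, with 42 and 23 counts against 9 and 11, a log2 fold change of 1.86 (SE 0.385, edgeR adjusted p 0.000421). Hoxc11 was higher too, with 16 and 13 counts against 4 and 4 (log2 fold change 2.00, SE 0.526, edgeR adjusted p 0.00376). So 2 members were lower and 2 higher, against 21.6% and 20.3% of 17305 genes. Their libraries did not overlap between treatments, but the share of all genes without overlap was not computed. The median over the 6 tested members was -0.18, and -0.01 over all genes tested.

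Hoxd10, with 38 and 24 counts against 45 and 45, was not called (log2 fold change -0.38, 95% interval -0.92 to 0.16). Hoxa11, with 20 and 18 against 18 and 24, was not called either (0.02, 95% interval -0.74 to 0.77), and the sign of its estimate turned with DESeq2. The Hoxc11 call was lost with DESeq2 (adjusted p 0.111) and without Chiron 120 h replicate 1 (edgeR adjusted p 0.0636). At 96 h, 2 of 6 members were lower with Activin A, against 30.2% of genes. Hoxd10, Hoxc11 and Hoxd11 were at the floor with both treatments at 96 h and passed the filter only through the 120 h libraries. Hoxa11 had at most 4 counts in any library of either treatment at 96 h. So 2 of 6 is no share to set beside that of all genes. Hoxa10 had 7 and 10 against 20 and 27 counts (log2 fold change -1.48, SE 0.368, edgeR adjusted p 0.00134). Hoxc10 had 0 and 0 against 6 and 13, at least 2.98-fold lower (edgeR adjusted p 4.87e-05). On log2(FPKM + 1) with limma Hoxc10 was not called (adjusted p 0.0862).

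**Figure D4:**
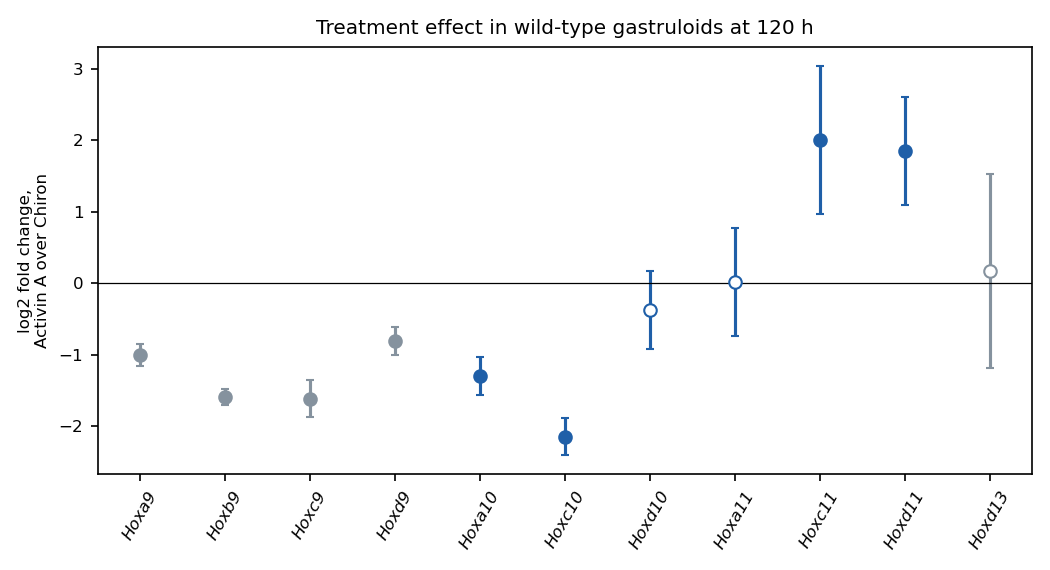
Log2 fold change of Activin A over Chiron in wild-type gastruloids at 120 h with its 95% interval, by edgeR, for the tested Hox genes of groups 9 to 13; blue marks groups 10 to 12, filled points are called. Group 9 genes, Hoxa10 and Hoxc10 lie below 0, and Hoxc11 and Hoxd11 lie above it.

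Whether the treatment effect changed between 96 h and 120 h was tested as an interaction. Of 6 members 2 were called higher, Hoxc10 (edgeR adjusted p 0.0198) and Hoxc11 (0.0189), against 21.7% of genes. Both had 0 counts in each Activin A library at 96 h, so the treatment effect at that time is at most a bound, and the size of the interaction depends on the prior count and is not given. DESeq2 called neither (adjusted p 0.0642 and 0.0516), and leaving out either Activin A library at 96 h ended both calls. Leaving out Chiron 96 h replicate 2 ended that of Hoxc10, and leaving out Chiron 96 h replicate 1 ended that of Hoxc11. On log2(FPKM + 1) the estimate of Hoxc10 turned to -1.63 and was called (limma adjusted p 0.00116), and Hoxd11 was called higher (limma adjusted p 0.0234).

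The genes on either side of the members were compared in the same fits. In the treatment comparison at 120 h, 4 of 5 tested genes of groups 9 and 13 were lower with Activin A: Hoxb9 by a log2 fold change of -1.59 (SE 0.0563), Hoxa9 by -1.004 (SE 0.0797), Hoxd9 by -0.81 (SE 0.101) and Hoxc9, named after its values were seen. Hoxc10 and Hoxa10 had the sign of these neighbours, and Hoxd11 and Hoxc11 the opposite one. Between genotypes in Activin A gastruloids at 120 h, 4 of 6 tested were lower in Hox-/- and 2 higher, against 25.5% and 24.9% of genes. Hoxa13, which patterns the hand and foot, was at least 64.6-fold higher, and Hoxa9 was lower by at least 253-fold.

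In the stretches between and over the members the tables list 6 further genes, all noncoding. Hoxa11os, an antisense RNA that overlaps Hoxa11, had 69, 104 and 77 counts in wild-type endoderm. Hotair, a noncoding RNA between Hoxc12 and Hoxc11, had 25, 26 and 26 counts there. Both had 0 in every Hox-/- library and were called lower, at least 33.2-fold and 10.4-fold. The library kit keeps strand, but whether counting used it is not given in the sources used here, so counts of Hoxa11 and Hoxa11os may include each other's reads. The other 4 had at most 2 counts over all libraries.

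Of 17 regulators of posterior Hox genes, all tested, 12 were lower and 2 higher with Activin A than with Chiron at 120 h, against 21.6% and 20.3% of genes (median log2 fold change -0.28, against -0.01 over all genes). Gdf11, a ligand that promotes the switch from trunk to tail and was named after its values were seen, had a log2 fold change of -2.82 at 96 h (SE 0.0857), and at 120 h its log2 fold change was -1.39 (SE 0.0763). Cdx2, a caudal transcription factor, was lower by -1.36 (SE 0.0699) at 120 h. Pcsk5, the protease that activates GDF11, was lower by -4.66 (SE 0.182) at 96 h and not called at 120 h (0.12, edgeR adjusted p 0.525). Isl1, a factor of the hindlimb field and heart, was higher by 5.16 (SE 0.226) at 120 h.

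Between genotypes in Activin A gastruloids at 120 h, 10 of these 17 were higher in Hox-/- and 2 lower, against 24.9% and 25.5% of genes (median 0.23, against -0.02 over all genes). Cdx1, a caudal factor like Cdx2, was higher by 3.66 (SE 0.0911), Pcsk5 by 1.51 (SE 0.0679) and Cdx2 by 0.74 (SE 0.0533), and Isl1 was lower by -1.73 (SE 0.126). In endoderm cultures 9 were higher and 5 lower, against 23.1% of genes called in each direction, with Cdx2 higher by 1.08 (SE 0.0633) and Pcsk5 lower by -0.61 (SE 0.0768). The part of these genes in the members' levels was not tested.

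Markers of several cell types were summed for the same comparisons. Summed endoderm markers (8 of 8 genes in the tables) ran from 690 to 710 CPM in wild-type endoderm and from 398 to 439 CPM in Hox-/- endoderm, with none at the floor in either. In gastruloids at 120 h they ran from 711 to 714 CPM with Activin A and from 54.7 to 55.5 CPM with Chiron, and in Hox-/- Activin A gastruloids from 83.4 to 85.7 CPM. The 8 presomitic and somitic markers summed to 531 to 542 CPM with Activin A and 1005 to 1042 CPM with Chiron at 120 h, and the 7 caudal progenitor markers to 657 to 662 and 665 to 728 CPM. In Hox-/- Activin A gastruloids at 120 h the presomitic and somitic markers summed to 1466 to 1475 CPM and the caudal progenitor markers to 534 to 543 CPM. In endoderm cultures the 6 pluripotent markers ran from 537 to 617 CPM in wild type and from 178 to 198 CPM in Hox-/-. The part of these cell types in the members' differences was not tested.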

How the data were processed

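Per the labels' protocols, libraries came from poly(A) RNA and a kit that keeps strand. The submitters' processing notes name cutadapt 1.16, STAR, Cufflinks 2.2.1 and the mm10 build, and the counting tool and its strand setting are not given in the sources used here. The deposited count tables hold whole-number counts per Ensembl gene, and the deposited FPKM tables hold FPKM (fragments scaled by transcript length and library size) with symbols and positions. The 4 wild-type Activin A libraries appear in both gastruloid tables with identical values. From the counts, CPM was computed by library total. The 12 comparisons were tested over all genes with edgeR 4.0.16 (R 4.3.3): filterByExpr, TMM, one coefficient per group, quasi-likelihood test and Benjamini-Hochberg adjustment, called at an adjusted p under 0.05. Each table was fitted as a whole, and mES and endoderm libraries were fitted together for 1 comparison. The statistics were tested on simulated data that held no genes of low mean count and no interactions. That test does not cover members near the floor. The alternatives were other scaling and filters, DESeq2 1.42.0, limma 3.58.1 on log2 FPKM, a replicate block and leaving out each library. The members and lists were chosen with earlier results of these data known. Named genes were all members, at most 4 per companion list (smallest p between genotypes in Activin A gastruloids at 120 h) and, for members with at least 5 CPM, the 2 genes most like each over the 10 group means. Some genes that this rule names are not reported here.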

Additional observations from a re-analysis of the deposited data

Results flagged for a closer look

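Hoxc10 and Hoxc11 are listed because the interaction of treatment with time passed edgeR's test (adjusted p 0.0198 and 0.0189). Hoxc10 had 0 and 0 counts with Activin A against 6 and 13 with Chiron at 96 h, and 82 and 79 against 449 and 351 at 120 h. Hoxc11 had 0 and 0 against 2 and 1 at 96 h, and 16 and 13 against 4 and 4 at 120 h. With no Activin A counts at 96 h, Hoxc10 was at least 2.98-fold lower there and Hoxc11 was at the floor with both treatments, so a difference between the times is not shown by these calls. The sign of the Hoxc10 estimate turned to -0.54 on log2(FPKM + 0.1) and to -1.63, called, on log2(FPKM + 1). With DESeq2 the adjusted p was 0.0642 for Hoxc10 and 0.0516 for Hoxc11.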

How the results depend on the processing

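Over 52 single-gene results, 765 alternative values were computed: 731 kept direction and side of the threshold, 21 lost the call, 2 gained one and 11 turned sign. Many of the 52 results have a member at the floor in 1 group, where the call is no support. Their agreement between settings is no support either. RLE size factors, total counts alone, no filter on low counts and the replicate block changed no call of a member. Whether the replicate numbers pair the samples is not settled here. For same-numbered endoderm libraries of both genotypes, deviations from the group means of log2(CPM + 1) correlated across genes between -0.26 and 0.25. In mES cells this correlation was 0.155. With the replicate block, 8 members were called between genotypes in endoderm and 6 in Activin A gastruloids at 120 h, as without it. The cause of the following changes was not tested. Between genotypes in mES cells 2 members were called, but 1 with DESeq2, 1 with limma on log2(FPKM + 0.1) and 0 with a pseudocount of 1. In Activin A gastruloids at 96 h log2(FPKM + 1) gave 0 calls in place of 1. The genotype by time test gave 0, but 1 with DESeq2, 4 with the FPKM pseudocount of 0.1 and 6 with that of 1. The treatment comparison at 96 h gave 2, but 1 on log2(FPKM + 1) and 1 in a fit of only the 2 groups compared. The treatment by time test gave 2, but 0 with DESeq2, 1 on log2(FPKM + 0.1), and 0 to 2 when 1 library was left out. Hoxa11 between treatments ran from -3.84 to 0.19 at 96 h and from -0.34 to 0.39 at 120 h when 1 library was left out, turning sign without Chiron 96 h replicate 1, and at 120 h without Chiron replicate 1 and without Activin A replicate 1; at 120 h it was -0.016 with DESeq2 and -0.051 on log2(FPKM + 1). In the treatment by time test log2(FPKM + 1) gave -0.40 for Hoxa10, -1.63 for Hoxc10, -0.24 for Hoxd10 and -0.0059 for Hoxa11, log2(FPKM + 0.1) gave -0.54 for Hoxc10, and Hoxa11 ran from -0.15, without Chiron 96 h replicate 1, to 3.87 when 1 library was left out. A filter of at least 10 counts in every library tested no member, and the fit of only the 2 groups compared tested none between genotypes at 96 h or over time in Hox-/-. FPKM fits across the mES and endoderm tables were not run.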

Other observations

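Genes of hindlimb and kidney, tissues where the members act, were followed as a list of 12. With Activin A against Chiron at 120 h, 7 were higher and 2 lower, against 20.3% and 21.6% of genes (median log2 fold change 1.08, against -0.01 over all genes tested). Osr1, a factor of the kidney field, was at the floor with Chiron and at least 47.8-fold higher with Activin A, and Hand2, a hindlimb and heart factor, was higher by a log2 fold change of 2.54 (SE 0.502). Between genotypes in Activin A gastruloids at 120 h, 7 were higher and 3 lower in Hox-/-, against 24.9% and 25.5% of genes (median 0.48, against -0.02 over all genes). Eya1, a factor of the kidney field, was higher by 0.82 (SE 0.0774) and Osr1 by 0.56 (SE 0.136), and Hand2 was at the floor in Hox-/- and at least 7.47-fold lower. Both medians at 120 h are the same with the genes at the floor set at their bounds. At 96 h the list median was -0.92 for Activin A against Chiron and -0.83 between genotypes (-0.61 with bounds). Over all genes these were -0.001 and 0.03. Between genotypes in endoderm cultures the list median was -0.31, against 0.002 over all genes. In mES cells it was 0.19 over the 5 listed genes tested, against 0.0006.

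The genes outside the Hox clusters whose group means were most like those of the members over the 10 groups, among 13220 genes, are given as a description. For Hoxc10 the nearest was Pax9 (Pearson r 0.898 of log2(CPM + 1)), with Coq9 second (0.889). For Hoxa11, Hoxc11 and Hoxd11 it was Idh3b (0.923, 0.950 and 0.948), and for Hoxc12 it was Grhl1 (0.891), with Cct5 second (0.813). Polr1c came second for Hoxc11. Among the members r was 0.993 for Hoxd10 and Hoxa11 and 0.434 for Hoxa10 and Hoxc12. The 10 points share libraries between genes and include 4 Hox-/- groups at or near 0. Pearson r does not measure the size of a change. Idh3b group means ran only from 125.7 CPM (Chiron, 96 h) to 153.7 CPM (wild-type endoderm), while those of Hoxa11 ran from 0 to 35.0 CPM.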
